A study of Mus musculus with 12 samples.

Results

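Transcripts of the complement system were measured in whole lungs of Balb/c mice with 3 forms of house dust mite (HDM) induced airway inflammation and in control lungs. The genes were the listed symbols C1qa, C1qb, C1qc, C3, C4b, Cfb, Serping1, C3ar1 and C5ar1. Of these 9 symbols, 8 had a probe set annotated to that gene alone, out of 19937 genes with such a probe set. C3, the central component that all activation routes cleave, had none, and its level was not analysed here. Each of the 8 genes had 1 probe set. Expression was read on Affymetrix mouse Gene 1.0 ST arrays, and values are log2 intensities, so that a difference of 1 is a doubling of the signal.

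The design held 4 groups of 3 mice, each mouse with its own array. Neutrophilic mice had received HDM extract with 7.5 development units (DU) each of the mite allergens Der f and Der p into the nose, once a week and 4 times in all. Mixed mice had received 0.75 DU of each allergen by the same route and schedule, so that these 2 groups differed in dose. Eosinophilic mice had been sensitised by intraperitoneal injection of 0.75 DU of each allergen on 1.5 mg of aluminium hydroxide on days 0, 7 and 21, and the same dose was then given into the nose on days 26 to 28. Control mice had received only phosphate-buffered saline into the nose, with no injection and no adjuvant. The mixed and eosinophilic groups shared the dose of each application and differed in route of sensitisation, adjuvant and schedule together, so these cannot be told apart. The labels give no age, sex, batch, slide or scan date. They number the mice 23 to 25 in the neutrophilic group, 15 to 17 in the mixed, 7 to 9 in the eosinophilic and 1 to 3 in the control group.

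Complement is a cascade of serum proteins and cell surface receptors that marks particles for uptake, attracts leukocytes and punctures membranes. The classical route starts when C1q, assembled from the products of C1qa, C1qb and C1qc, binds antibody on a target. The alternative route runs through factor B, encoded by Cfb, and properdin. Most circulating complement is made in the liver, whereas C1q is made mainly by macrophages and dendritic cells. The fragments C3a and C5a act on the receptors encoded by C3ar1 and C5ar1, and in lung they are known as attractants and activators of granulocytes and macrophages.

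The 3 C1q genes lie next to each other on mouse chromosome 4. Promoter windows from 250 bases before to 50 bases after an annotated start site were given for C1qb and C1qc by RefSeq (GRCm38.p6). For C1qc, and for C5ar1 below, this site lies inside the outer end listed for the gene. They are shown because C1qb and C1qc were the pair of members whose levels ran closest together over the lungs described below. Capitals mark a match to GAGGAA, a core sequence of the myeloid factor PU.1, or to its reverse complement. The windows lie on the minus strand at chr4:136886151-136886450 for C1qb and chr4:136892865-136893164 for C1qc.
C1qb: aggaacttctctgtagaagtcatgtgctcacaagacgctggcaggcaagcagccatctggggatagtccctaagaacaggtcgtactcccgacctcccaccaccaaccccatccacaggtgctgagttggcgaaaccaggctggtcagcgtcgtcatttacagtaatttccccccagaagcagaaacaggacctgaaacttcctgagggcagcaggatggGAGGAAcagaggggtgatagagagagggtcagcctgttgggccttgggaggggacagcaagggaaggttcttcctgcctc
C1qc: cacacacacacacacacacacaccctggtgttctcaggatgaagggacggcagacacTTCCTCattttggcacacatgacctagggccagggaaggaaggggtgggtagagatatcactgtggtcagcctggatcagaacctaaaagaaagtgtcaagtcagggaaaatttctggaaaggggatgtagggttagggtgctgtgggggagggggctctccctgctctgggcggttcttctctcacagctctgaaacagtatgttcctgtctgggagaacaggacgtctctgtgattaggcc
In C1qb the match read GAGGAA and began at position -30 from the start site. In C1qc it read TTCCTC and began at position -193. Both strands were searched, and 28.3% of 32851 mouse promoter windows of this kind held the motif, so a match is common. The windows of C3ar1 and C5ar1 held no match to it. None of these 4 windows held a match to the interferon-stimulated response element (in 3.44% of windows), TTCNNNGAA (gamma-activated site, in 8.30%) or TTGCNNAA (C/EBP, in 10.8%). The window of C3, a gene whose level was not analysed, held a match to TTGCNNAA (TTGCGAAA at position -45) and to no other of these motifs. Windows of C1qa, C4b, Cfb and Serping1 were not analysed here.

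One array stood apart and bears on every value of the eosinophilic group. The array of eosinophilic mouse 7 had a Pearson r of 0.356, over all probe sets, against the median values of the 11 remaining arrays. Its lung markers were low: the surfactant gene Sftpc was at 7.38 there, against 12.95 to 14.31 on the other 11 arrays, and the endothelial gene Cdh5 was at 7.55, against 10.40 to 11.61. The defining markers of lung were thus present on 11 arrays and strongly reduced on 1. The arrays of neutrophilic mouse 23 and eosinophilic mouse 9 had a narrower range of values (SD over probe sets 1.51 and 1.52) than the other 9 arrays (1.77 to 2.04). Their r was lower too, at 0.868 and 0.864, against 0.956 to 0.980 on those 9 arrays. Results of the eosinophilic group are therefore given with and without mouse 7, and neutrophilic results with and without mouse 23. The groups without eosinophilic mice were compared in a fit of their 9 arrays.

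**Figure D1:**
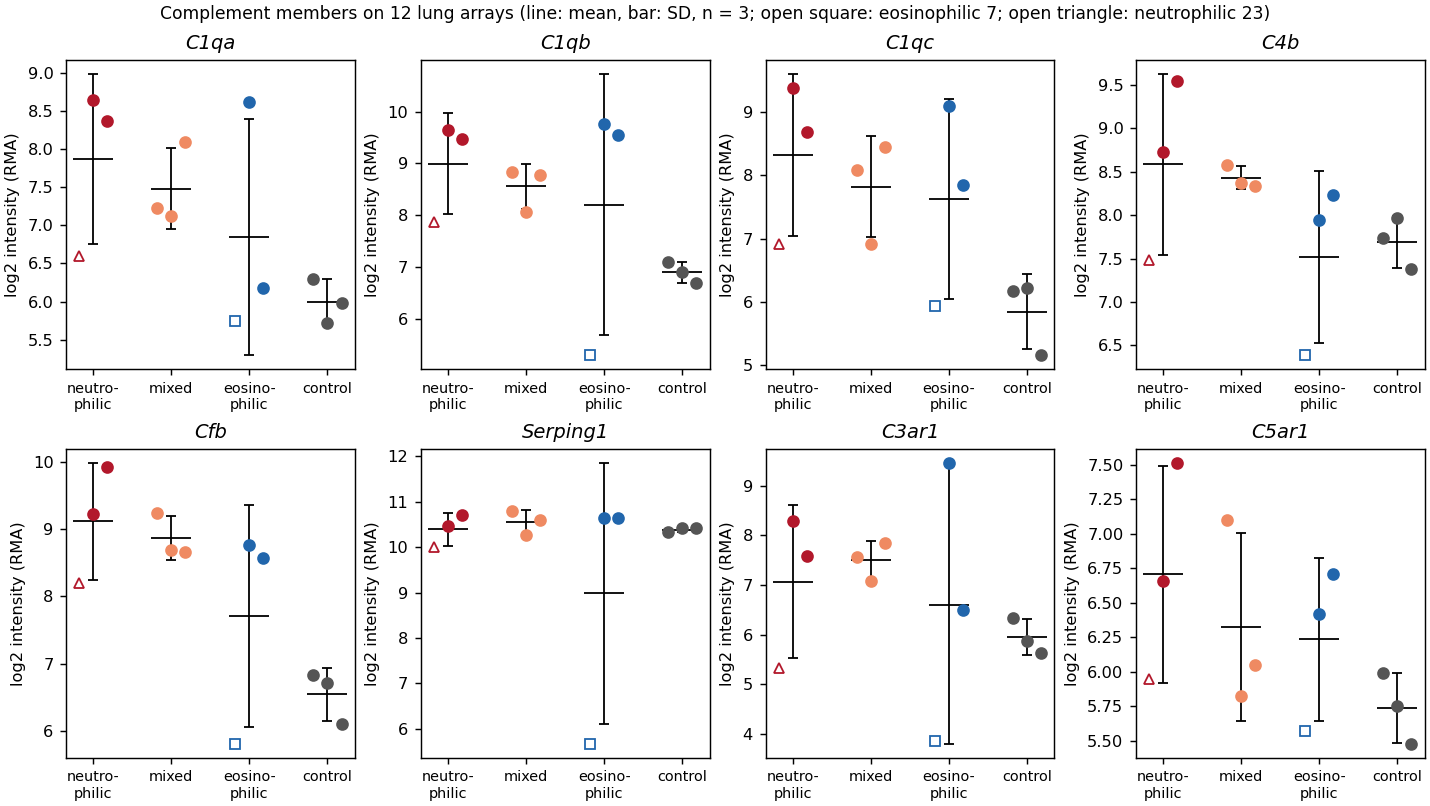
Log2 intensity (y axis) of 8 complement genes on each of 12 lung arrays, with points for single mice, a horizontal line for the group mean and a bar for the SD (n = 3 mice). The open square is eosinophilic mouse 7 and the open triangle neutrophilic mouse 23, the lowest of its group in all 8 panels. Cfb lies at 8.19 or above in all neutrophilic and mixed lungs and at 6.83 or below in control lungs, and Serping1 lies between 10.01 and 10.79 on every array but that of mouse 7.

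Among the initiating genes, the 3 C1q chains were higher in neutrophilic than in control lungs. C1qa, the A chain, read 6.59, 8.65 and 8.38 in neutrophilic lungs, 7.22, 7.13 and 8.10 in mixed lungs, 5.74, 8.63 and 6.18 in eosinophilic lungs and 6.30, 5.72 and 5.98 in control lungs. All neutrophilic and mixed lungs lay above all control lungs, while in the eosinophilic group only mouse 8 was clearly higher. C1qa was 1.87 ± 0.45 log2 units (SE) or 3.66-fold higher in neutrophilic lungs, with an adjusted p of 0.0167 from limma. In mixed lungs the difference of 1.48 ± 0.45 missed the threshold of 0.05 (adjusted p = 0.0976).

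C1qb, the B chain, read 7.88, 9.65 and 9.47 in neutrophilic lungs, 8.83, 8.05 and 8.78 in mixed lungs, 5.29, 9.76 and 9.56 in eosinophilic lungs and 7.09, 6.90 and 6.68 in control lungs. Every treated lung except that of eosinophilic mouse 7 was above every control lung. C1qb was 4.30-fold higher in neutrophilic lungs (2.11 ± 0.40, adjusted p = 0.00477). It was 3.17-fold higher in mixed lungs (1.66 ± 0.40, adjusted p = 0.0354). C1qb and Cfb were the members that passed in both intranasal models.

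C1qc, the C chain, read 6.91, 9.38 and 8.68 in neutrophilic lungs, 8.09, 6.92 and 8.45 in mixed lungs, 5.94, 9.09 and 7.84 in eosinophilic lungs and 6.17, 6.21 and 5.16 in control lungs. Neutrophilic and mixed lungs did not overlap with control lungs, but they overlapped with each other. C1qc was 5.56-fold higher in neutrophilic lungs (2.48 ± 0.56, adjusted p = 0.0115). In mixed lungs the difference was 1.97 ± 0.56 and missed the threshold (adjusted p = 0.0719).

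C4b encodes C4, which the activated C1 complex cleaves. Its close copy C4a is nearly identical, so the 2 probe sets may share signal and the value is uncertain. C4b read 7.48, 8.73 and 9.55 in neutrophilic lungs, 8.58, 8.38 and 8.34 in mixed lungs, 6.39, 7.95 and 8.23 in eosinophilic lungs and 7.73, 7.97 and 7.38 in control lungs. The mixed lungs were tightly grouped (8.43 ± 0.13, SD, n = 3) and all above the control lungs (7.69 ± 0.30, SD, n = 3), whereas neutrophilic mouse 23 lay within the control range. The difference from control was 0.89 ± 0.40 in neutrophilic and 0.74 ± 0.40 in mixed lungs (SE, adjusted p = 0.173 and 0.449), and neither passed.

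Cfb encodes factor B, the protease subunit of the alternative route's convertase. It read 8.19, 9.23 and 9.93 in neutrophilic lungs, 9.24, 8.70 and 8.67 in mixed lungs, 5.80, 8.77 and 8.57 in eosinophilic lungs and 6.83, 6.71 and 6.10 in control lungs. The lowest neutrophilic or mixed lung exceeded the highest control lung by more than the whole spread of the control group. Cfb was 5.96-fold higher in neutrophilic lungs (2.57 ± 0.38, adjusted p = 0.00107) and 5.01-fold higher in mixed lungs (2.33 ± 0.38, adjusted p = 0.00426). It had the smallest adjusted p of the 8 genes in both comparisons.

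Serping1 encodes the C1 inhibitor, which inactivates C1r and C1s. It read 10.01, 10.46 and 10.71 in neutrophilic lungs, 10.79, 10.28 and 10.61 in mixed lungs, 5.68, 10.65 and 10.64 in eosinophilic lungs and 10.32, 10.41 and 10.42 in control lungs. Apart from eosinophilic mouse 7, all arrays lay within a range of less than 1 log2 unit. The difference was 0.0077 ± 0.24 in neutrophilic lungs (95% interval -0.52 to 0.53) and 0.17 ± 0.24 in mixed lungs (-0.35 to 0.70), with adjusted p of 0.986 and 0.890. These intervals leave out changes as large as those of Cfb, and changes within them were not resolved.

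C3ar1, the receptor of C3a, read 5.34, 8.29 and 7.58 in neutrophilic lungs, 7.56, 7.08 and 7.86 in mixed lungs, 3.86, 9.46 and 6.499 in eosinophilic lungs and 6.34, 5.87 and 5.63 in control lungs. Neutrophilic mouse 23 was below every control mouse, while the other 2 neutrophilic and all mixed lungs were above them. The difference was 1.12 ± 0.56 in neutrophilic and 1.55 ± 0.56 in mixed lungs, and neither passed (adjusted p = 0.218 and 0.173). C5ar1, the main receptor of C5a and a gene of neutrophils and monocytes, read 5.94, 6.66 and 7.51 in neutrophilic lungs, 7.10, 5.82 and 6.05 in mixed lungs, 5.57, 6.42 and 6.71 in eosinophilic lungs and 5.99, 5.75 and 5.48 in control lungs. Both intranasal groups overlapped with control. C5ar1 differed by 0.97 ± 0.40 in neutrophilic and 0.59 ± 0.40 in mixed lungs (adjusted p = 0.136 and 0.606).

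In all, 4 of the 8 genes (C1qa, C1qb, C1qc and Cfb) rose in neutrophilic lungs and none fell, where 3.02% of all 19937 genes rose and 10.4% fell. The median difference of the 8 genes from control was 1.50 log2 units, and that of all genes 0.048. The neutrophilic and control groups did not overlap for these same 4 genes, with the neutrophilic lungs above, as was so for 12.6% of all genes. In mixed lungs 2 of 8 genes (C1qb and Cfb) rose and none fell, where 1.76% of all genes rose and 2.44% fell. The groups did not overlap for 6 of 8 genes there, against 9.16% of all genes, and the median difference was 1.52, against 0.0046 for all genes. The 2 comparisons share the control mice, so their likeness is not independent.

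These calls depended on which arrays shared the fit. When the spread was estimated over all 12 arrays, none of the 8 genes passed in neutrophilic lungs (lowest adjusted p = 0.0704, for Cfb) or in mixed lungs (lowest 0.202, for Cfb), with 4 and 2 of 8 at an unadjusted p under 0.05. Of all genes, 2.11% passed in neutrophilic and 0.471% in mixed lungs in that fit, and 14.7% and 7.95% had an unadjusted p under 0.05. The differences themselves were the same, but the SE of C1qb was 0.92 with all 12 arrays and 0.40 with 9. With 11 arrays, leaving out only eosinophilic mouse 7, 3 of 8 passed in neutrophilic lungs, C1qa being lost (adjusted p = 0.0638), and 2 of 8 in mixed lungs, where 2.24% and 1.41% of all genes rose.

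Single arrays decided some of the calls as well. In mixed lungs C1qb did not pass when any 1 of the 3 mixed or 3 control arrays was left out (adjusted p = 0.0545 to 0.146) or when arrays were centred on their medians (0.124), whereas Cfb passed in each of those fits (0.0174 to 0.0285). In neutrophilic lungs C1qa did not pass without control mouse 2 or 3 or neutrophilic mouse 24 or 25 (adjusted p up to 0.0776) or with median centring, and C1qc did not pass without control mouse 3 (0.0515). C1qb and Cfb passed there without any single array of the 2 groups.

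Mouse 23 was the lowest of the neutrophilic group for all 8 genes. Without it, 7 of 8 genes passed, all but Serping1, and all rose, where 5.76% of all genes rose and 10.2% fell. The differences from control were then 2.51 for C1qa, 2.67 for C1qb, 3.18 for C1qc and 3.04 for Cfb. The members added were C4b (1.44 ± 0.27, adjusted p = 0.00196), C3ar1 (1.99 ± 0.30, adjusted p = 0.000398) and C5ar1 (1.35 ± 0.35, adjusted p = 0.0168). All 8 genes then lay above control without overlap, as did 20.1% of all genes. Whether the narrow range of that array or the lung itself accounts for its low values was not tested.

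Eosinophilic lungs showed no change that passed with all 3 mice, and C1qb and Cfb rose when mouse 7 was left out. With all 12 arrays 0 of 8 genes passed by limma and 1, C1qc, had an unadjusted p under 0.05 (1.78 ± 0.77, adjusted p = 0.164), where 0.0752% of all genes rose, 0.421% fell and 28.2% had an unadjusted p under 0.05. Mouse 7 was the lowest of its group for all 8 genes. Without it, C1qb was 6.81-fold higher than in control lungs (2.77 ± 0.45, adjusted p = 0.0117) and Cfb 4.36-fold higher (2.12 ± 0.42, adjusted p = 0.0310), where 0.451% of all genes rose. C1qb was at 9.76 and 9.56 in mice 8 and 9, and Cfb at 8.77 and 8.57, so both mice were well above all control lungs for both genes.

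The arrays of mice 8 and 9 differed from each other for other members. That of mouse 9 was narrow in range, and whether this or the lung accounts for its lower values was not tested. C1qa was at 8.63 and 6.18, C1qc at 9.09 and 7.84, and C3ar1 at 9.46 and 6.499 in mice 8 and 9, with mouse 8 the highest of all 12 arrays for C3ar1 and mouse 9 near or within the control range for C1qa and C3ar1. Without mouse 7 the differences were 1.40 for C1qa, 2.62 for C1qc and 2.03 for C3ar1, and none passed (adjusted p = 0.306, 0.0694 and 0.234). C4b, Serping1 and C5ar1 differed by 0.40, 0.26 and 0.83 and did not pass either (adjusted p = 0.663, 0.645 and 0.362). The groups did not overlap for 6 of 8 genes without mouse 7, against 14.6% of all genes, and that group then held 2 mice.

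**Figure D2:**
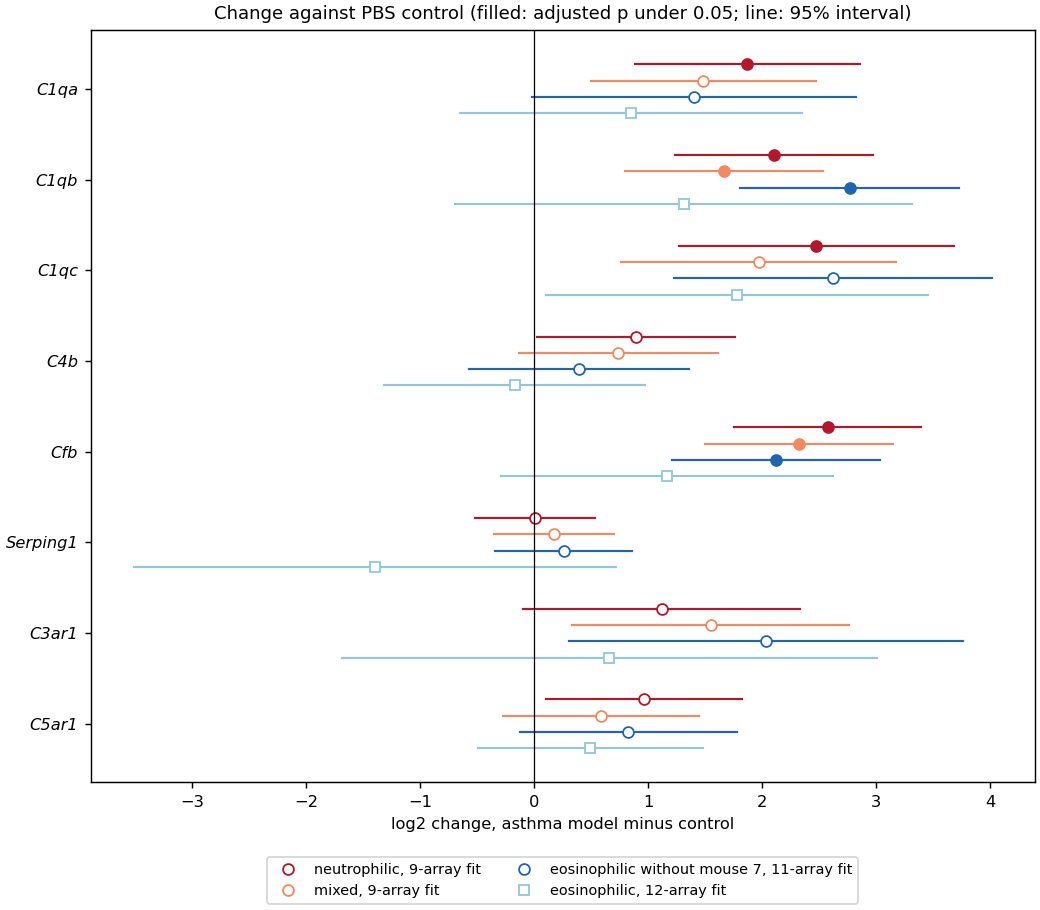
Difference in log2 intensity from control lungs (x axis) for 8 complement genes, with 95% intervals as lines and adjusted p under 0.05 as filled symbols, in neutrophilic and mixed lungs (9-array fit) and in eosinophilic lungs without mouse 7 (11-array fit) and with it (12-array fit). Filled symbols are seen for C1qb and Cfb in all 3 models without mouse 7 and for C1qa and C1qc in neutrophilic lungs, and Serping1 lies near 0 in all fits but the one with mouse 7.

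The higher dose was compared with the lower one by setting neutrophilic against mixed lungs, and no difference passed. Cfb averaged 9.12 ± 0.87 in neutrophilic and 8.87 ± 0.32 in mixed lungs, and C1qc averaged 8.32 ± 1.27 in neutrophilic and 7.82 ± 0.80 in mixed lungs (SD, n = 3 each). With 9 arrays 0 of 8 genes passed by limma, 0 had an unadjusted p under 0.05, where 0.0552% of all genes passed and 10.6% had an unadjusted p under 0.05. The intervals ran from -0.43 to 1.31 for C1qb and from -0.57 to 1.07 for Cfb, so that a rise of up to about those upper bounds was not left out. Without mouse 23, 6 of 8 genes had an unadjusted p under 0.05, all higher in neutrophilic lungs, and none passed after adjustment (lowest 0.140, for C1qb), where 0.266% of all genes passed and 4.32% were higher with an unadjusted p under 0.05.

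Mixed and eosinophilic lungs shared the dose of each application but not the route of sensitisation, adjuvant or schedule, and they did not differ by the test either. With all 12 arrays 0 of 8 genes passed and 0 had an unadjusted p under 0.05, where 0.00502% of all genes passed and 16.7% had an unadjusted p under 0.05. Without mouse 7 the direction of C1qb turned: it was lower in mixed than in eosinophilic lungs by the difference of -1.10 ± 0.45 (95% interval -2.06 to -0.14, adjusted p = 0.674), with the 3 mixed lungs below mice 8 and 9, as for 8.76% of all genes. None of the 8 genes passed there, where 0.0502% of all genes did. Without mouse 7, C1qc (-0.65), C3ar1 (-0.48) and C5ar1 (-0.24) had lower means in mixed lungs as well, and C4b (0.34) and Cfb (0.20) had higher ones. For C4b the 3 mixed lungs (8.58, 8.38 and 8.34) all lay above mice 8 and 9 (7.95 and 8.23). The neutrophilic and eosinophilic groups differ in dose, route and adjuvant and were not compared.

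**Figure D3:**
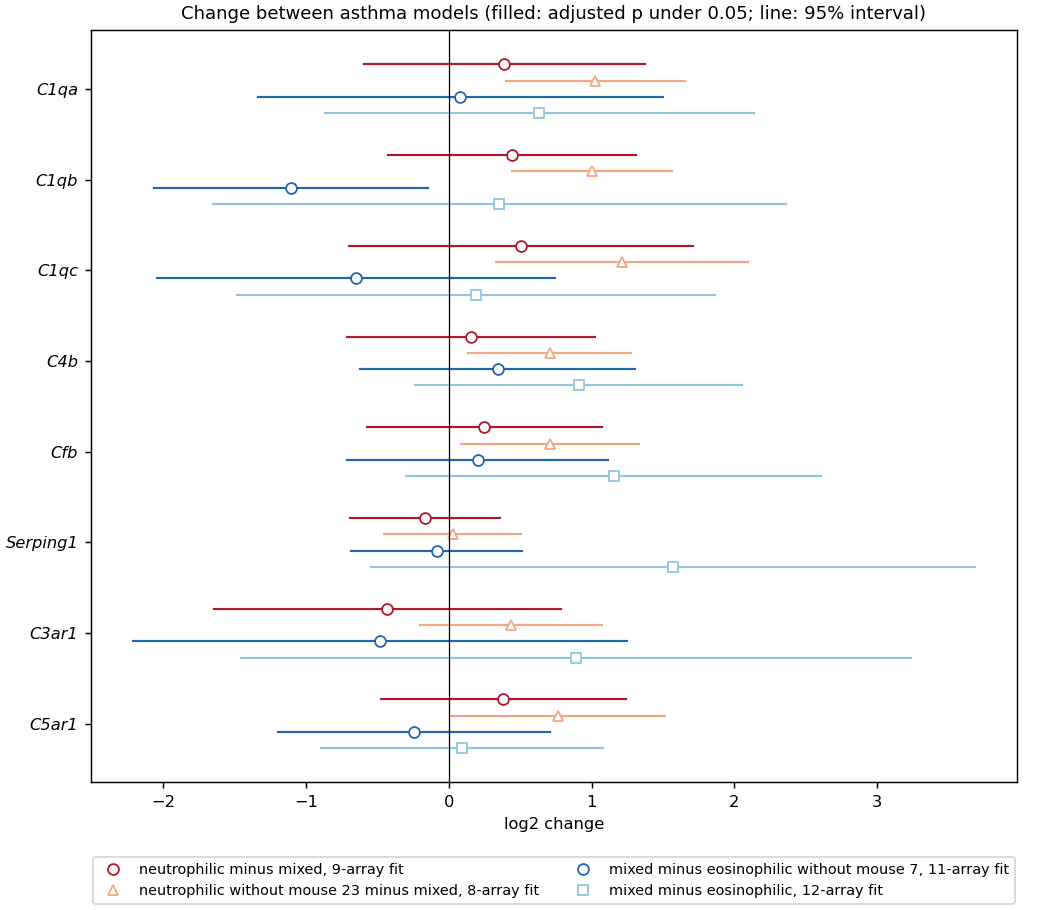
Difference in log2 intensity between models (x axis) for 8 complement genes, with 95% intervals as lines, for neutrophilic minus mixed lungs with and without mouse 23 and for mixed minus eosinophilic lungs without and with mouse 7. No symbol is filled, since none had an adjusted p under 0.05, and the symbols of C1qb lie on both sides of 0 in the mixed minus eosinophilic comparison.

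The order of the group means was neutrophilic, mixed, eosinophilic and control for C1qa, C1qb, C1qc, Cfb and C5ar1 with all mice. For C4b and Serping1 the eosinophilic mean was the lowest, and C3ar1 was highest in mixed lungs. Without mouse 7 the eosinophilic mean became the highest for C1qb (9.66), C1qc (8.47), Serping1 (10.64) and C3ar1 (7.98). Neutrophilic and mixed lungs did not differ past the threshold for any of the 8 genes in the fits given above, nor did mixed and eosinophilic lungs. Neutrophilic and eosinophilic lungs, neighbours in some of these orders, were not compared.

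Of the wider complement system, 51 of 57 listed genes were measured, 43 of them beside the 8 members. Of these 43, 4 rose and 2 fell in neutrophilic lungs, beside 3.02% and 10.4% of all genes, with a median difference of 0.16. In mixed lungs 0 of 43 passed by limma with 9 arrays, and 6 had an unadjusted p under 0.05, 3 higher and 3 lower, beside 5.08% higher and 9.94% lower of all genes. In eosinophilic lungs 0 of 43 passed with 12 or with 11 arrays, and 8 or 6 had an unadjusted p under 0.05, beside 28.2% or 16.4% of all genes. For neutrophilic against mixed lungs 0 of 43 passed by limma, with 4 at an unadjusted p under 0.05 in the fit of 9 arrays (10.6% of all genes) and 7 in that of 8, 5 higher and 2 lower (4.32% and 6.73% of all genes). For mixed against eosinophilic lungs 0 of 43 passed, with 5 at an unadjusted p under 0.05 in the fit of 12 arrays (16.7% of all genes) and 3 in that of 11 (7.24%).

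Cfp encodes properdin, which stabilises the alternative convertase. It read 7.07, 8.66 and 8.28 in neutrophilic lungs, 7.96, 7.34 and 7.99 in mixed lungs, 5.21, 8.26 and 7.49 in eosinophilic lungs and 6.62, 6.76 and 6.36 in control lungs. Both intranasal groups lay above control. Cfp rose in neutrophilic lungs (1.42 ± 0.36, adjusted p = 0.0198) and differed by 1.18 in mixed lungs without passing (adjusted p = 0.0949). Thus both measured genes of the alternative route, Cfb and Cfp, rose in neutrophilic lungs.

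Among classical genes 3 of 9 rose in neutrophilic lungs, all of them C1q chains. C1s1, a protease of the C1 complex, with the highest mean of the genes of that role outside the members, did not change by the test (-0.04 ± 0.36, adjusted p = 0.956), and C4a differed by 0.92 (adjusted p = 0.0505). None of 9 lectin genes passed, and Colec12, a scavenger collectin, was at 7.96, 8.71 and 8.60 in neutrophilic lungs against 9.56, 9.28 and 8.96 in control lungs (-0.84 ± 0.28, adjusted p = 0.0665). Of 7 terminal genes, Hc, which encodes C5, did not pass (-0.45 ± 0.32, adjusted p = 0.384). C8b, a chain of the membrane attack complex, passed (0.77, adjusted p = 0.0410), but its highest neutrophilic value of 4.96 lies at the level of the array medians (4.94 to 5.50).

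Of 7 soluble regulators, Clu rose and Vtn fell in neutrophilic lungs. Both products, clusterin and vitronectin, bind terminal complexes. Clu read 8.19, 9.05 and 9.10 in neutrophilic lungs, 9.05, 8.19 and 8.26 in mixed lungs, 5.97, 8.02 and 7.44 in eosinophilic lungs and 7.43, 7.67 and 7.59 in control lungs (neutrophilic minus control 1.21 ± 0.30, adjusted p = 0.0185). The 3 neutrophilic and 3 mixed lungs covered nearly the same range. Vtn read 5.65, 5.35 and 5.49 in neutrophilic lungs and 6.73, 6.73 and 6.35 in control lungs (-1.10 ± 0.30, adjusted p = 0.0278). It read 6.39, 5.50 and 5.13 in mixed lungs and 5.40, 5.41 and 5.32 in eosinophilic lungs. All eosinophilic lungs were thus below all control lungs for Vtn as well, though it did not pass in the mixed or eosinophilic model.

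None of 6 membrane regulators passed in neutrophilic lungs. Cd59a, which blocks the membrane attack complex and had the highest mean of them, differed by -1.17 ± 0.40 (adjusted p = 0.0723). Of 11 receptors and binding proteins, Itgax rose and Cd93 fell. Itgax, the CD11c chain of complement receptor 4, read 7.83, 9.74 and 9.14 in neutrophilic lungs against 7.58, 7.24 and 6.72 in control lungs (1.72 ± 0.44, adjusted p = 0.0208). It read 8.66, 7.98 and 9.11 in mixed lungs and 5.64, 8.64 and 8.69 in eosinophilic lungs. Of these, only eosinophilic mouse 7 was not above all control lungs, though Itgax did not pass in the mixed or eosinophilic model. Cd93, once described as a C1q receptor and known as an endothelial and myeloid surface protein, read 9.79, 9.76 and 10.06 in neutrophilic lungs, 10.83, 10.40 and 10.51 in mixed lungs, 5.65, 10.62 and 10.42 in eosinophilic lungs and 11.32, 11.01 and 11.09 in control lungs (neutrophilic minus control -1.27 ± 0.22, adjusted p = 0.00275). All neutrophilic and mixed lungs were below all control lungs for Cd93.

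Without neutrophilic mouse 23, 7 of the other 43 rose and 2 fell, beside 5.76% and 10.2% of all genes. C1ra (0.88, adjusted p = 0.0265), C4a (1.10, adjusted p = 0.0150), Itgam (1.54, adjusted p = 0.00868) and Itgb2 (1.24, adjusted p = 0.00387) were added, and C8b no longer passed (adjusted p = 0.0580). Itgam and Itgb2 encode the chains of complement receptor 3. With all 12 arrays 0 of 43 passed in neutrophilic lungs by limma, and 7 had an unadjusted p under 0.05, beside 14.7% of all genes.

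**Figure D4:**
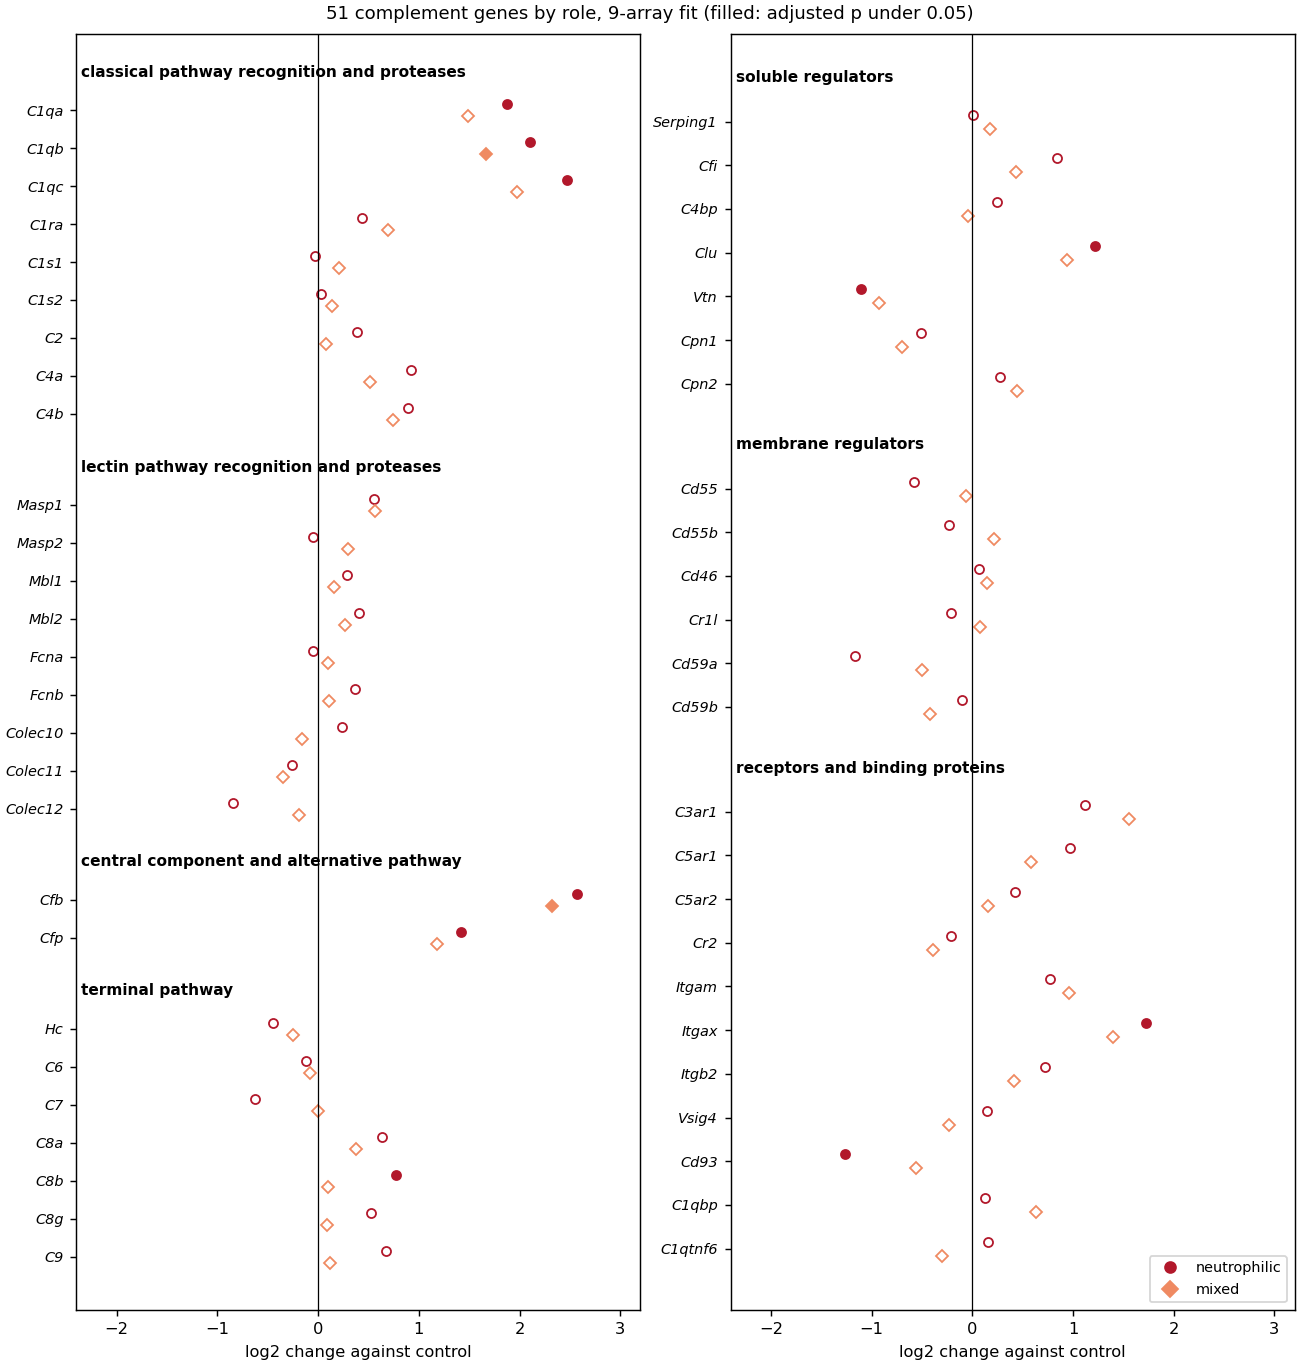
Difference in log2 intensity from control lungs (x axis) for the 51 measured complement genes by role, as circles for neutrophilic and diamonds for mixed lungs (9-array fit), filled where the adjusted p is under 0.05. Filled circles stand at C1qa, C1qb, C1qc, Cfb, Cfp, C8b, Clu and Itgax to the right of 0 and at Vtn and Cd93 to the left, and filled diamonds at C1qb and Cfb.

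Marker genes of other cells moved in the same lungs. In whole lung, fewer cells of a type and less RNA per cell cannot be told apart. The mean level of 13 neutrophil markers ran from 6.73 to 8.15 in neutrophilic lungs, 7.15 to 7.68 in mixed lungs, 6.59 to 6.95 in eosinophilic mice 8 and 9 and 5.45 to 5.99 in control lungs. Of these 13, 9 rose in neutrophilic and 7 in mixed lungs, where 3.02% and 1.76% of all genes rose. In eosinophilic lungs without mouse 7, 0 of the 13 passed. When mouse 23 was left out, 11 of the 13 rose in neutrophilic lungs, where 5.76% of all genes rose. The brightest were Retnlg, 1.80 above control in neutrophilic and 2.22 in mixed lungs, and Cxcr2, 1.87 above control in neutrophilic and 2.45 in mixed lungs. The granule genes Mpo, Elane and Camp averaged 4.51, 4.79 and 4.66 over all arrays, below every array median. Other granule genes of the list were higher than in control lungs. Ngp averaged 7.005 in neutrophilic and 4.20 in control lungs, and Ltf 8.49 and 6.77. For Ngp, mouse 23 was at 4.475, near the control lungs (4.08 to 4.33), and mice 24 and 25 were at 7.85 and 8.69. Of 7 measured eosinophil markers, 1 (Alox15) rose in mixed lungs and 0 passed in neutrophilic lungs or in eosinophilic lungs without mouse 7, and Epx, Prg2 and Il5ra averaged 4.64, 4.73 and 4.42. Alox15 differed by 0.60 in neutrophilic, 1.51 in mixed and 1.31 in eosinophilic lungs without mouse 7, and Siglecf, the brightest of that list, by 0.11, 0.31 and 0.16 without passing.

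A few macrophage markers rose. The mean level of 11 measured interstitial macrophage and monocyte markers ran from 7.28 to 8.03 in neutrophilic lungs, 7.55 to 8.02 in mixed lungs, 8.16 to 8.75 in eosinophilic mice 8 and 9 and 6.95 to 7.42 in control lungs, so that the neutrophilic range overlapped with control. Of all genes, 3.02% rose in neutrophilic, 1.76% in mixed and 0.451% in eosinophilic lungs without mouse 7. Of the 11 markers, 3 rose in neutrophilic lungs (Cd68, Ms4a7 and Cd163), 1 in mixed lungs (Cd163) and 3 in eosinophilic lungs without mouse 7 (Mrc1, Folr2 and Cd163). Apoe and Lyve1, the brightest of the list, were not among them (0.55 and -0.21 in neutrophilic, 0.14 and 0.86 in mixed, -0.012 and -0.28 in eosinophilic lungs without mouse 7). Cx3cr1, a chemokine receptor of monocytes, averaged 5.45 in neutrophilic and 6.21 in control lungs without passing (adjusted p = 0.109). Cd163, a scavenger receptor of tissue macrophages, differed by 1.03 in neutrophilic, 1.65 in mixed and 4.71 in eosinophilic lungs without mouse 7. When mouse 23 was left out, 6 of the 11 markers rose in neutrophilic lungs and 1 fell, where 5.76% of all genes rose and 10.2% fell.

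The shares of all genes that rose were 3.02% in neutrophilic, 1.76% in mixed and 0.451% in eosinophilic lungs without mouse 7. Of 8 alveolar macrophage markers, 1 rose in each model, the chitinase-like gene Chil3 (3.65 in neutrophilic, 4.11 in mixed and 4.09 in eosinophilic lungs without mouse 7). Car4, the brightest, differed by -0.59, -0.26 and -0.49 in the same order and did not pass, and Marco and Fabp1 averaged 4.82 and 4.69 over all arrays. The mean level of the list was 6.86 to 6.95 in neutrophilic, 7.02 to 7.34 in mixed, 6.83 to 6.91 in eosinophilic (mice 8 and 9) and 6.52 to 6.79 in control lungs, while its median difference from control was -0.17, 0.076 and -0.26. Of 7 dendritic cell markers, Cd209a rose in mixed lungs (1.72, adjusted p = 0.00922) and none passed in the other 2 models, where it differed by 0.62 (neutrophilic) and 0.53 (eosinophilic without mouse 7). Fscn1 differed by 1.07, 0.48 and 0.62 without passing. When mouse 23 was left out, 2 of the 7 dendritic cell markers and 1 of the 8 alveolar macrophage markers rose in neutrophilic lungs, and none fell. Of all genes, 5.76% rose and 10.2% fell in that fit. The part of macrophages and dendritic cells in the C1q values was not tested.

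Genes that respond to interferon-gamma had levels of 7.20 to 9.23 in neutrophilic lungs, 8.12 to 8.73 in mixed lungs, 7.03 to 7.62 in eosinophilic mice 8 and 9 and 5.89 to 6.21 in control lungs, as means of 8 measured genes. Of the 8, 7 rose in neutrophilic, 6 in mixed and 1 in eosinophilic lungs without mouse 7. Beside them, 3.02%, 1.76% and 0.451% of all genes rose, in the same order. When mouse 23 was left out, all 8 rose in neutrophilic lungs, where 5.76% of all genes rose. The brightest were Irf1, at 1.77 and 1.42 above control in neutrophilic and mixed lungs, and Cxcl10, at 5.63 and 5.17. Their part in the Cfb values was not tested.

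Blood endothelium markers ran the other way, at 8.92 to 9.58 in neutrophilic, 9.21 to 9.87 in mixed, 9.58 to 9.63 in eosinophilic (mice 8 and 9) and 10.29 to 10.54 in control lungs. Of 7 markers 4 fell in neutrophilic lungs and 3 in mixed lungs, where 10.4% and 2.44% of all genes fell. Cd93 fell beside them in neutrophilic lungs. Cdh5, the brightest, differed by -0.65 in neutrophilic lungs without passing, and Cldn5 fell there by 1.30. The part of endothelium in the Cd93 value was not tested.

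Of 8 listed liver markers 7 were measured, with a mean level of 4.82 to 5.33 in neutrophilic, 4.61 to 5.02 in mixed, 4.68 to 4.92 in eosinophilic (mice 8 and 9) and 4.32 to 4.46 in control lungs. Hpx, which encodes hemopexin and is the brightest of them, rose in neutrophilic and mixed lungs (1.57 and 1.68) and was the marker that passed. In those comparisons 3.02% and 1.76% of all genes rose. Apoa2 differed by 0.30 and -0.15 there without passing, and the median difference of the list was 0.57 and 0.31. Hpx was above the array's own median on 10 of 12 arrays, Apoa2 on 9, Apoa1 on 3, Alb on 2, Ttr and Fgb on 1 each and Ahsg on 0. The part of liver transcripts in the complement values was not tested.

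Epithelial and stromal lists were set beside all genes in the same way. Of all genes, 3.02% rose and 10.4% fell in neutrophilic lungs, and 1.76% rose and 2.44% fell in mixed lungs. Of 8 alveolar type 2 markers, 1 rose in mixed lungs (Sftpd, 1.10) and 0 passed in neutrophilic lungs, where the surfactant genes Sftpc and Sftpa1 differed by -0.39 and -0.77. Of 5 club cell markers, Cyp2f2 fell in neutrophilic lungs (-1.89, adjusted p = 0.00801) and Scgb3a1 rose in neutrophilic and mixed lungs (1.28 and 1.79), while Scgb1a1, the brightest, differed by 0.66 and 0.22 without passing. Of 8 fibroblast markers, 3 fell in neutrophilic lungs, among them Dcn (-0.85, adjusted p = 0.0270) and Npnt (-1.07, adjusted p = 0.0489), and 0 passed in mixed lungs. None of 4 mesothelial markers passed in either of these models, with Krt19 and Upk3b at -0.68 and -0.87 in neutrophilic and -0.89 and -1.16 in mixed lungs. In neutrophilic lungs without mouse 23, 1 of 8 alveolar type 2 markers rose, 1 of 5 club cell markers rose and 2 fell. Of the 8 fibroblast markers, 2 rose and 3 fell in that fit, where 5.76% of all genes rose and 10.2% fell. In eosinophilic lungs without mouse 7, 1 marker of the 4 epithelial and stromal lists passed, the club cell gene Scgb3a2 (-1.91). Alas2, the 1 red blood cell marker measured, differed by -0.09 in neutrophilic and 0.29 in mixed lungs and did not pass.

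The levels of the members were compared with each other and with all other genes over 11 arrays, leaving out eosinophilic mouse 7. These correlations carry the group differences and the shared arrays, and they are given as descriptions. C1qb and C1qc had the highest r of any pair (0.949), C1qa had r = 0.885 with C1qc but 0.779 with C1qb, and C1qa and C3ar1 had r = 0.889. Cfb followed C1qb (r = 0.885) and C1qc (r = 0.881). Serping1 had r of at most 0.687 with any other member.

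Of all other genes, the nearest to C1qc were Cfp (r = 0.984) and Cd68 (r = 0.974), a lysosomal protein of macrophages. The nearest to C1qb were Fn1 (r = 0.976), which encodes fibronectin, and Rab3il1 (r = 0.965). The nearest to C1qa were Ccl6 (r = 0.961), a myeloid chemokine, and Cstb (r = 0.954), a cathepsin inhibitor. Cfb lay nearest to Csf2rb (r = 0.983), the shared receptor chain for GM-CSF, IL-3 and IL-5, and to Slc7a2 (r = 0.979), a transporter of arginine.

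C4b lay nearest to Gm12250 (r = 0.937) and Ier5l (r = 0.929), and Serping1 to 1810055G02Rik (r = 0.955) and Eps8 (r = 0.920). C3ar1 lay nearest to Psmd8 (r = 0.959) and Ms4a8a (r = 0.957), and C5ar1 to Tm9sf4 (r = 0.938) and Entpd3 (r = 0.931).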

How the data were processed

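Whole lungs of 12 Balb/c mice (4 groups of 3) were snap frozen, and 300 ng of total RNA per lung was labelled with biotin, per the labels' protocols. The deposited values are log2 intensities, 1 per probe set, for which the submitters' processing notes name RMA and, as software of the authors, Affymetrix Expression Console. No version is given for either in those notes, and base 2 was inferred from the values' range. RMA makes arrays alike in distribution, yet their SDs differed. Precision is limited by having 3 arrays a group.

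Of 34760 probe sets, 21640 had 1 gene symbol in the platform annotation, 1321 several, and 11799 were not listed. Gene IDs of 21553 were found in RefSeq (GRCm38.p6), where all had the symbol already given. The probe set with the highest mean stood for a gene, which gave 19937 genes.

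Tests ran in limma 3.58.1 (R 4.3.3): a mean per group, contrasts and eBayes, two-sided, with Benjamini-Hochberg adjustment over all 19937 genes and a threshold of 0.05. Comparisons among neutrophilic, mixed and control lungs used their 9 arrays, and those with eosinophilic lungs all 12, with 11 arrays (without mouse 7) beside them. The members, lists, markers and this choice of arrays were made with earlier results of these data known. The script was checked on simulated data. P-values set a difference between groups against the pooled spread within groups. With each mouse on its own array, that spread holds both mouse and array.

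Genes were named by rule: all members; other complement genes past the threshold in any comparison, or with the highest mean in their role; the 2 genes with the highest correlation to each member; and the 2 brightest of each marker list. Genes outside the rule (other markers, C4a) were chosen after their values were seen. Motifs were searched in RefSeq promoter windows. Alternatives were other sets of arrays, a filter on dim genes (13370 left, with log2 values reaching 5 on 3 arrays), median centring, quantile normalization, a trended and robust eBayes, the mean of all probe sets, and leaving out single arrays.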

Additional observations from a re-analysis of the deposited data

How the results depend on the processing

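No paired analysis was possible because the groups share no replicate number. The count of members past the threshold, in neutrophilic against control lungs, was 4, and it was 0 with all 12 arrays, 2 to 7 when single arrays were left out (7 without mouse 23, 2 without control mouse 3) and 7 under both settings chosen after seeing the data, which left out eosinophilic 7 and neutrophilic 23, or these and eosinophilic 9. In mixed against control lungs it was 2, and it was 0 with all 12 arrays, 1 with median centring, 4 with quantile normalization, 1 whichever single mixed or control array was left out (Cfb each time), and 5 under both settings chosen after seeing the data. In eosinophilic against control lungs it was 0, and it ranged from 0 to 2 when single arrays were left out (2 without eosinophilic 7) and was 3 and 5 under the settings chosen after seeing the data. In mixed against eosinophilic lungs it was 0, and 0 to 1 when single arrays were left out, the 1 being C1qa without eosinophilic 8 (1.52, adjusted p = 0.0496), a fit in which 5979 genes passed. It was 0 under every alternative run for neutrophilic against mixed lungs. The counts over all genes ranged from 421 to 3188 (2682 as reported), 94 to 1859 (838), 0 to 8264 (99), 0 to 5979 (1) and 0 to 53 (11) in the same order of comparisons. Median centring moved the median of all genes by -0.24 in eosinophilic against control and by 0.20 in mixed against eosinophilic lungs, and other medians by less than 0.1.

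Some values that did not pass changed sign. In neutrophilic against control lungs Serping1 was -0.077 with median centring and -0.15 to 0.20 without single arrays. In eosinophilic against control lungs C4b was 0.47 with quantile normalization, -0.52 to 0.40 without single arrays and 0.40 and 0.26 under the settings chosen after seeing the data. Serping1 was -2.23 to 0.26 and then 0.26 and 0.26, C1qa -0.038 to 1.40 and C3ar1 -0.77 to 2.03 without single arrays. In mixed against eosinophilic lungs quantile normalization gave -0.15 for C1qc and -0.015 for C5ar1. Without single arrays the ranges were -1.10 to 1.13 for C1qb, -0.65 to 0.93 for C1qc, -0.085 to 2.40 for Serping1, -0.48 to 2.32 for C3ar1 and -0.30 to 0.34 for C5ar1. The settings chosen after seeing the data gave -1.10 and -1.20 for C1qb, -0.65 and -1.27 for C1qc, -0.085 and -0.089 for Serping1, -0.48 and -1.97 for C3ar1, -0.24 and -0.10 for C5ar1, and, without 3 arrays, -1.14 for C1qa. In neutrophilic against mixed lungs Serping1 was 0.0019 with quantile normalization, -0.33 to 0.027 without single arrays and 0.027 under both later settings, and C3ar1 was -1.04 to 0.43 and then 0.43 under both. Without single arrays C1qa was -0.00033 to 1.03, C1qc -0.024 to 1.21, C4b -0.33 to 0.71, Cfb -0.16 to 0.71 and C5ar1 -0.023 to 0.77. The causes were not tested.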
